A study of Mus musculus with 18 samples.

Results

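The guanylate-binding protein genes are described here in macrophages of 3 genotypes and 2 polarization states. The 8 members are the rows named Gbp2, Gbp3, Gbp4, Gbp5, Gbp6, Gbp7, Gbp8 and Gbp9 in a table of 43309 mouse genes. They were chosen by name, with earlier results of these data known. Bone marrow cells of C57BL/6 mice were cultured with 10 ng/ml M-CSF and 10% serum for 7 days, which yields bone marrow-derived macrophages (BMDMs). Stimulation lasted 18 h. M1 cells received 100 ng/ml LPS, a bacterial cell wall component, together with 20 ng/ml interferon gamma, and M2 cells received 20 ng/ml IL-4. The genotypes were a PGRN knockout (PGRN KO, gene Grn, the secreted and lysosomal protein progranulin), a myeloid knockout of 14-3-3ε (14-3-3ε KO, gene Ywhae, an adaptor for phosphorylated proteins) and wild type (WT). The promoter that drives the myeloid deletion and the allele of the PGRN KO are not given in the sources used here. Each of the 6 groups has 3 libraries of total RNA.

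Guanylate-binding proteins are large GTPases that cells make in response to interferons, above all interferon gamma, with the transcription factor IRF1 among the regulators. In mouse macrophages they assemble on vacuoles that hold parasites or bacteria and on bacteria in the cytosol, together with the immunity-related GTPases (IRG proteins), and they promote the caspase-11 and AIM2 inflammasomes. The mouse genes lie in 2 clusters, on chromosomes 3 and 5.

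The names of 2 rows need care. The row named Gbp5 carries the identifier ENSMUSG00000040264, which GENCODE M21 on GRCm38 names Gbp2b (also known as mouse Gbp1). The row named Gbp6 carries ENSMUSG00000079362, which GENCODE M21 names Gm43302, a model that spans the Gbp10 and Gbp6 loci. GENCODE M21 gives Gbp5 and Gbp6 identifiers of their own with numbers 105504 and 104713, both above the highest number in the table, 104527. Whether the row named Gbp5 counts reads of Gbp5, of Gbp2b or of both cannot be told apart here, and the same holds for Gbp6, Gbp10 and Gm43302. These are called row Gbp5 and row Gbp6. The other 6 members carry the same name in GENCODE M21.

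On GRCm38 with GENCODE M21 annotation, 4 members are protein-coding genes on the plus strand of chromosome 3. Gbp7 lies at 142530342 to 142550149, Gbp3 at 142560026 to 142573209, the model behind row Gbp5 at 142594847 to 142619179, and Gbp2 at 142620602 to 142638008. The other 4 are protein-coding genes on the minus strand of chromosome 5. Gbp8 lies at 105014150 to 105139540, Gbp9 at 105077630 to 105139539, Gbp4 at 105115767 to 105139586, and the model behind row Gbp6 at 105214907 to 105293695. The models of Gbp8, Gbp9 and Gbp4 overlap on the same strand, so it can be unclear to which of them a read in the shared stretch belongs.

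How far these copies can be told apart by reads is shown here for the coding stretch around the nucleotide-binding loop. Each window has 75 bases of the coding strand on GRCm38, and capitals mark bases that differ from the model behind row Gbp6.
Gm43302 (row Gbp6; Gbp6 has the same exon), chr5:105290844-105290918, minus strand: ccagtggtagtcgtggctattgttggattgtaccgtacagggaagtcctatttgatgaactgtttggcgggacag
Gbp10, chr5:105235958-105236032, minus strand: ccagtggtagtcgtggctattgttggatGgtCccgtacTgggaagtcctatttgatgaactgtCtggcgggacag
Gbp9, chr5:105105671-105105745, minus strand: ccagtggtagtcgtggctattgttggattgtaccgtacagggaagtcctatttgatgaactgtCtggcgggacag
Gbp8, chr5:105050871-105050945, minus strand: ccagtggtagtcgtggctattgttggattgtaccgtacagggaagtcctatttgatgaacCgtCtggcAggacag
Gbp4, chr5:105136845-105136919, minus strand: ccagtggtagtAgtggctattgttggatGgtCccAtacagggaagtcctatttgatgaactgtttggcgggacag
Gbp2, chr3:142623802-142623876, plus strand: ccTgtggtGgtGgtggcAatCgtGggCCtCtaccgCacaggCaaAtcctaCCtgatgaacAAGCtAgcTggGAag
Gbp2b (row Gbp5), chr3:142598254-142598328, plus strand: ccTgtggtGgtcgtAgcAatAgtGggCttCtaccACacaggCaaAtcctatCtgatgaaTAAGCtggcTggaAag
Gbp5, chr3:142500665-142500739, plus strand: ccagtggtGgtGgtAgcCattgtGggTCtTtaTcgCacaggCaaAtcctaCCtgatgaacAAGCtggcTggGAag
The chromosome 5 windows differ from that of Gm43302 at 1 base in Gbp9, 3 in Gbp8, 4 in Gbp4 and 4 in Gbp10, against 22 in Gbp2. Over the whole coding sequence Gm43302 is 98.47% identical to Gbp10, and 99.89% to Gbp6, whose locus it overlaps, whereas Gbp2 and Gbp2b are 82.51% identical and Gbp2b and Gbp5 68.57%. Of all 50-base stretches in the transcripts of Gm43302, 100% also occur in another family gene, 92.96% in the overlapping Gbp6. That share is 18.1% for Gbp8, 8.046% for Gbp9, 7.53% for Gbp4, 3.75% for Gbp3, 2.26% for Gbp7, 2.03% for Gbp2 and 1.84% for Gbp2b. Values of row Gbp6 can therefore hold reads of its neighbours, and those of Gbp8 are the next most exposed.

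Promoters are shown because the members moved together between M1 and M2. RefSeq promoters on GRCm38.p6 were matched by name for 5 genes of the chromosome 3 cluster. The 250 bases before each RefSeq gene start were searched on both strands for the interferon-stimulated response element (ISRE, searched as GAAA, any 2 bases, then GAAA) and for the gamma-activated site (GAS, written TTCNNNGAA), and capitals mark the matches. Printed windows stop where the first GENCODE M21 exon begins.
Gbp2b, chr3:142594597-142594846, plus strand: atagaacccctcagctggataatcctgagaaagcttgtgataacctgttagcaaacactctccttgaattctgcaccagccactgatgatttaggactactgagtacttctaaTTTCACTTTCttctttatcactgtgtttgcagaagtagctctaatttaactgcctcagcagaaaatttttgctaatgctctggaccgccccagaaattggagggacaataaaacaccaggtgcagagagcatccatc
Gbp3, chr3:142559794-142560025, plus strand: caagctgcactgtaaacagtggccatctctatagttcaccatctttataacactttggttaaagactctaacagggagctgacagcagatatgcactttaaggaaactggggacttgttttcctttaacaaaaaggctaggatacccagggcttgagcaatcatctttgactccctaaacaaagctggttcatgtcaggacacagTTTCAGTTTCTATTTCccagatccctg
Gbp5, chr3:142496684-142496899, plus strand: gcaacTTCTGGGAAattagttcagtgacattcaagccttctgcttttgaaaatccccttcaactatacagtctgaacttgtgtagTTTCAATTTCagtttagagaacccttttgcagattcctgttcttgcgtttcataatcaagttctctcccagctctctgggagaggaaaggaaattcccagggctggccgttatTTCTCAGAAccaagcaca
Gbp7, chr3:142530086-142530335, plus strand: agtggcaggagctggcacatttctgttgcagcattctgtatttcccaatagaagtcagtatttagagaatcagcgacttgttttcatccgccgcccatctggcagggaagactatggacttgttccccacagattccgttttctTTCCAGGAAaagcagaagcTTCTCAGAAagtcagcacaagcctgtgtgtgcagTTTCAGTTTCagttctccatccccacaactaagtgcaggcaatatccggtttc
Gbp2, the 30 bases around its match, chr3:142620594-142620623, plus strand: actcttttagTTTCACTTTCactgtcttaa
All 5 hold an ISRE match. That of Gbp2, at 142620604 to 142620613, lies before the RefSeq gene start but inside the first exon of the GENCODE M21 model. In Gbp3 there are 2 that overlap each other. Gbp5 and Gbp7 hold 2 GAS matches each, and the other 3 hold none in this window. Among 27025 promoters searched the same way, 3.04% hold the ISRE letters, 7.18% the GAS letters and 0.389% both. A match is a run of letters and not a binding site shown to be used in these cells.

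The table holds log2 of a normalized count plus 1, and the values below are normalized counts obtained by reversing that scale. Reads recovered per library ranged over 5.16 to 105 M, a ratio of 20.4, and a read was worth 4.46 normalized counts in the shallowest library, WT M1 replicate 1. In WT M2 replicate 3, 14.8% of reads fell on ribosomal RNA-like genes, in WT M1 replicate 2 1.88%, and at most 0.232% elsewhere. Grn was at 23.9 to 497 normalized counts in PGRN KO libraries against 29365 to 91739 in WT libraries, and Ywhae was lowered but present in 14-3-3ε KO (log2 difference -0.72 in M1 and -0.85 in M2). The 7 macrophage markers took 1.86 to 2.24% of reads in PGRN KO M1, 0.832 to 1.20% in 14-3-3ε KO M1 and 1.11 to 1.92% in WT M1. In M2 they took 1.41 to 1.56% in PGRN KO, 0.376 to 0.463% in 14-3-3ε KO and 0.681 to 0.718% in WT. The 3 genotypes lay apart in this sum, in which Lyz2 weighed most. Lyz2 was at 10520 to 11430 CPM in PGRN KO M2, 469 to 1603 in 14-3-3ε KO M2 and 4057 to 4372 in WT M2. Of the 7, only Lyz2 lay below WT in 14-3-3ε KO M2. Itgam and Mertk lay above WT there, and Emr1, Csf1r, Cd68 and Fcgr1 overlapped with WT. The 3 endothelial markers took 0.0222 to 0.0380% in PGRN KO M1, 0.0331 to 0.0524% in 14-3-3ε KO M1 and 0.0112 to 0.0176% in WT M1, with both knockouts above WT. In M2 they took 0.0222 to 0.0423% in PGRN KO, 0.0253 to 0.0459% in 14-3-3ε KO and 0.00874 to 0.0230% in WT. The 5 neutrophil markers took at most 0.0298%, the 4 dendritic cell markers 0.000770%, the 6 T and NK cell markers 0.000252% and the 3 B cell markers 0.000712%. The 6 stromal markers, collagens and other fibroblast genes, took 1.04 to 1.14% of reads in PGRN KO M1, 2.32 to 3.08% in 14-3-3ε KO M1 and 1.18 to 2.26% in WT M1. In M2 they took 0.996 to 1.27% in PGRN KO, 2.36 to 3.14% in 14-3-3ε KO and 1.54 to 2.44% in WT. Of these 6 genes, 5 rose in 14-3-3ε KO relative to PGRN KO in M1 and 5 in M2. The shares of all genes called in either direction were 25% in M1 and 18.2% in M2. In PGRN KO relative to WT, 2 of the 6 fell in M1 and 4 in M2, where 25.3% and 19.4% of all genes were called. In 14-3-3ε KO relative to WT, 3 of the 6 rose in M1 and 0 in M2, where 21.3% and 6.69% of all genes were called. The part of these marker shares in the results below was not tested. In bulk RNA, fewer expressing cells and less RNA per cell cannot be told apart.

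As a family, the 8 genes were expressed far more in M1 than in M2 cells of every genotype. Their summed level was 46292 to 47369 normalized counts in PGRN KO M1, 27870.5 to 34069.5 in 14-3-3ε KO M1 and 25498 to 27664 in WT M1. In M2 the sum was 638 to 919.6 in PGRN KO, 771 to 1307 in 14-3-3ε KO and 476 to 668 in WT. In M1 the 3 genotypes formed separate ranges, with PGRN KO highest and WT lowest. In M2 both knockouts were above WT on average, and the range of PGRN KO overlapped that of WT.

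**Figure D1:**
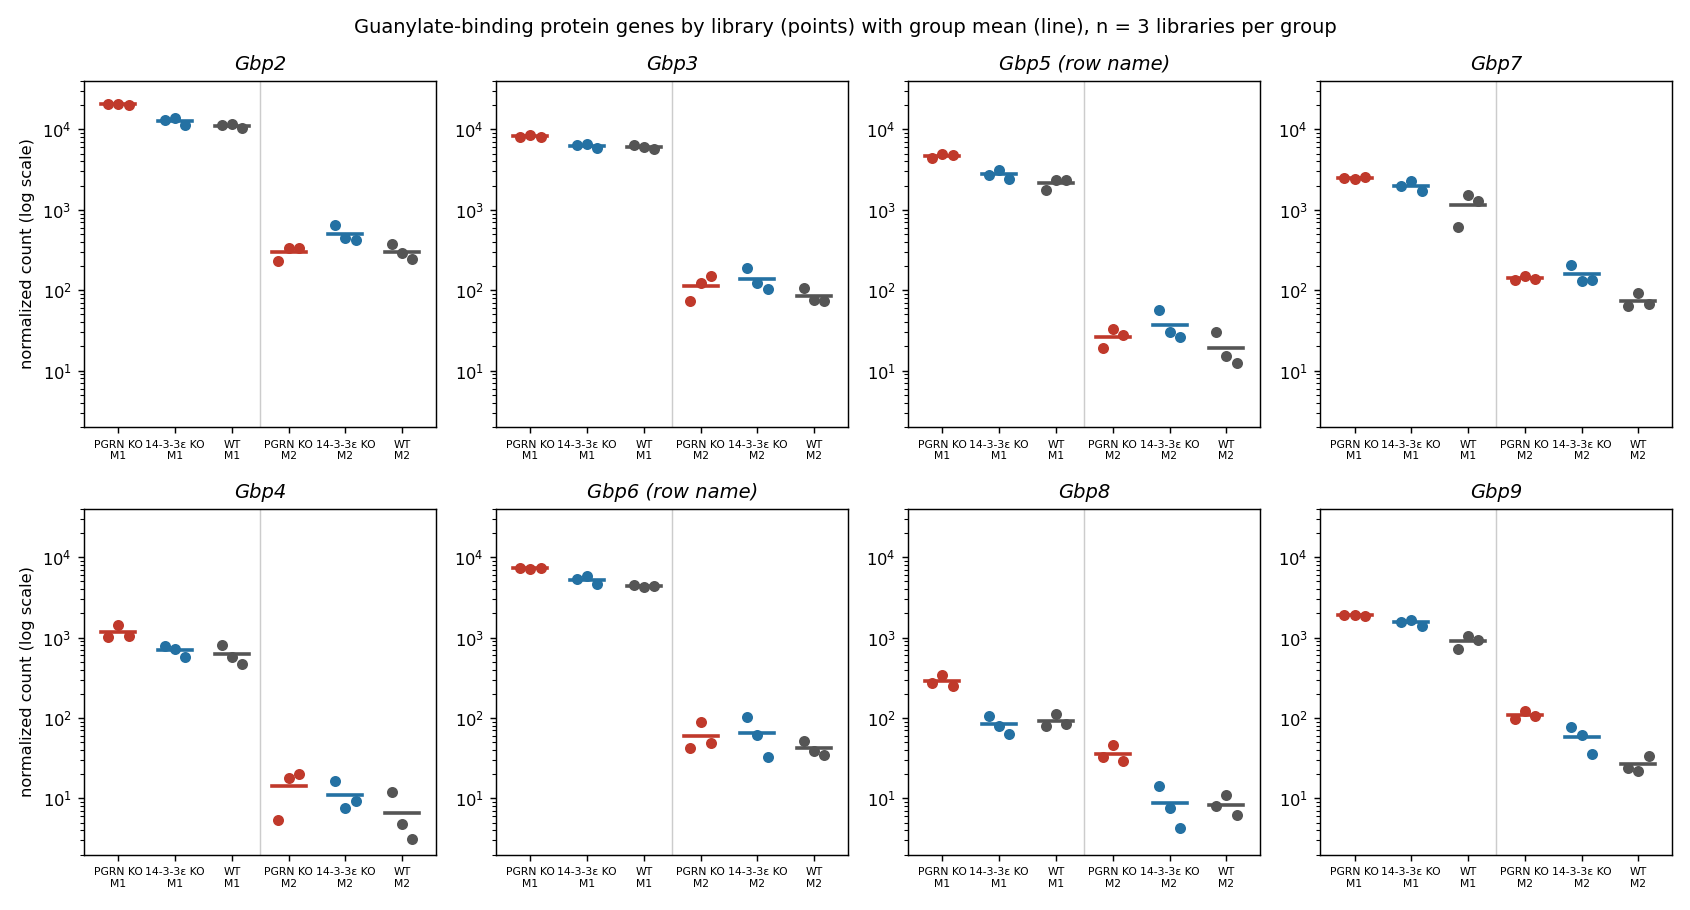
Normalized counts (log scale) of the 8 guanylate-binding protein genes, with a point per library and a line at the mean of 3 libraries. In every panel the M1 libraries on the left stand above the M2 libraries on the right, and PGRN KO M1 is the highest group.

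Levels can be compared between genes per kilobase of annotated exon. By this measure Gbp2 was the highest member in all 6 groups, at a mean of 8166 normalized counts per kb in PGRN KO M1, 5059 in 14-3-3ε KO M1 and 4409.8 in WT M1. Gbp3 came next in every group, at 2545, 1919.6 and 1862 per kb in the same 3 groups. In M1 the order below them was row Gbp6, row Gbp5, Gbp7, Gbp9, Gbp4 and Gbp8 in all genotypes. Row Gbp5 was scaled by the exon length of Gbp2b, 2.823 kb, whereas Gbp5 has 6.637 kb. Row Gbp6 was scaled by that of Gm43302, 4.31 kb, whereas Gbp6 has 5.954 kb. Levels, ranks and shares per kb that involve these rows depend on lengths that are not settled here. Row Gbp6 and row Gbp5 overlapped in PGRN KO and 14-3-3ε KO M1, and Gbp7 and Gbp9 overlapped in 14-3-3ε KO and WT M1, so those neighbours did not differ beyond the spread of the libraries.

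In M2 all levels per kb were low, from 201 for Gbp2 in 14-3-3ε KO to 0.885 for Gbp4 in WT. Gbp7 came after Gbp2 and Gbp3 in every M2 group, with 25.01 per kb in PGRN KO, 28.1 in 14-3-3ε KO and 13.3 in WT. In PGRN KO M2 the next in order were Gbp9 at 21.02, row Gbp6 at 13.9, Gbp8 at 10.4 and row Gbp5 at 9.40 per kb, and of these each overlapped its neighbour. In 14-3-3ε KO and WT M2, Gbp9 and Gbp8 came below row Gbp6 and row Gbp5, with Gbp8 at 2.51 and 2.43 per kb.

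**Figure D2:**
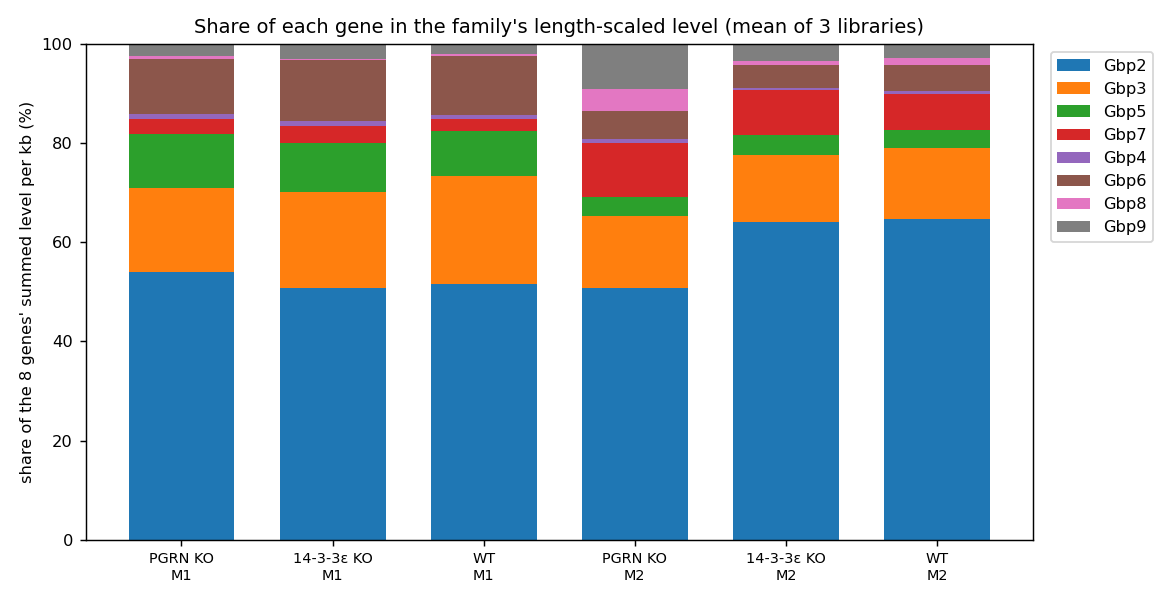
Share (%) of each gene in the 8 genes' summed level per kb, as the mean of 3 libraries. Gbp2 makes up the largest share of every bar, and in PGRN KO M2 the bands of Gbp8 and Gbp9 are wider than in the other groups.

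In both states some shares of the family in PGRN KO lay apart from those of both other genotypes. In M1 Gbp2 held 54.0 ± 0.858% of the summed level per kb in PGRN KO, 50.8 ± 0.631% in 14-3-3ε KO and 51.6 ± 1.55% in WT (SD, n = 3 each). Gbp3 held 16.8 ± 0.378% in PGRN KO M1, 19.3 ± 0.669% in 14-3-3ε KO M1 and 21.8 ± 1.13% in WT M1, and its 3 ranges lay apart. In M1 the PGRN KO ranges of Gbp2, Gbp8 and Gbp9 also lay apart from those of both other genotypes, with Gbp8 at 0.554%, 0.241% and 0.313% and Gbp9 at 2.44%, 3.00% and 2.04% in PGRN KO, 14-3-3ε KO and WT. In M2 the share of Gbp2 was 50.7 ± 1.02% in PGRN KO, 64.1 ± 2.77% in 14-3-3ε KO and 64.8 ± 1.46% in WT (SD, n = 3 each). The shares of Gbp8 and Gbp9 were larger in PGRN KO M2 than in the other M2 groups. Gbp8 held 4.45 ± 0.990% in PGRN KO M2, 0.754 ± 0.251% in 14-3-3ε KO M2 and 1.33 ± 0.397% in WT M2. Gbp9 held 8.995 ± 1.05% in PGRN KO M2, 3.53 ± 0.741% in 14-3-3ε KO M2 and 2.92 ± 1.21% in WT M2. In M2 too the PGRN KO ranges of Gbp2, Gbp8 and Gbp9 lay apart from those of both other genotypes. No test was run on shares.

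M1 cells were compared with M2 cells in each genotype with limma on log2 of the normalized count plus 1, with p-values adjusted by Benjamini-Hochberg over 21336 genes and a threshold of 0.05. All 8 members rose in PGRN KO, in 14-3-3ε KO and in WT, where 18.0%, 15.6% and 18.9% of all tested genes were higher in M1. In each genotype all 8 also had M1 libraries entirely above the M2 libraries, as did 24.3%, 25.2% and 19.8% of all genes. The median log2 difference of the members was 6.17 in PGRN KO, 5.15 in 14-3-3ε KO and 5.68 in WT, while the median of all genes was within 0.04 of 0. M1 cells received interferon gamma and M2 cells did not, so stimulus and polarization are the same contrast here.

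Gbp2, which carries a signal for prenylation at its end and binds pathogen vacuoles, is the most abundant member. It had 20817, 20613 and 20207 normalized counts in PGRN KO M1, against 234, 340.3 and 333 in PGRN KO M2. It had 13226, 13744 and 11214 in 14-3-3ε KO M1, against 643, 449 and 422 in 14-3-3ε KO M2. In WT it had 11384, 11623 and 10277 in M1, against 371, 289 and 243 in M2. The M1 and M2 libraries do not come near each other, and the log2 difference was 6.10 ± 0.17 in PGRN KO, 4.67 ± 0.17 in 14-3-3ε KO and 5.22 ± 0.17 in WT (SE; adjusted p = 5.42e-14, 1.47e-12 and 2.98e-13, limma).

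Row Gbp5 had the widest M1 to M2 difference in PGRN KO and WT. Gbp2b and Gbp5 proteins are both prenylated in the mouse, and mouse Gbp5 has been tied to the NLRP3 inflammasome. The row had 4380.3, 4943 and 4799 normalized counts in PGRN KO M1, against 19.0, 33.0 and 27.6 in PGRN KO M2. It had 2711, 3153 and 2397 in 14-3-3ε KO M1, against 56.1, 30.03 and 26.3 in 14-3-3ε KO M2. In WT it had 1770.3, 2381 and 2371 in M1, against 30.6, 15.1 and 12.4 in M2. The log2 differences were 7.45 ± 0.30, 6.23 ± 0.30 and 6.83 ± 0.30 in PGRN KO, 14-3-3ε KO and WT, a fold of 175, 75.1 and 114. The M2 level of row Gbp5 rested on 12 to 98 reads per library, so these folds are uncertain in size. Row Gbp6 was the widest in 14-3-3ε KO, at 6.44 ± 0.32, and in WT it was close to row Gbp5, at 6.68.

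Gbp3 and Gbp4 behaved much as row Gbp5 did. Gbp3, a member of the chromosome 3 cluster whose loss weakens control of Toxoplasma in mice, had log2 differences of 6.23, 5.52 and 6.15 in PGRN KO, 14-3-3ε KO and WT. Gbp4, reported in the mouse to restrain the interferon regulatory factor IRF7, had differences of 6.40, 5.90 and 6.48. Its M2 level rested on 3 to 53 reads per library, so the size of its difference is less certain than that of the abundant members.

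The smallest differences in all genotypes were those of Gbp8 and Gbp7, apart from Gbp9 in PGRN KO, which lay just under Gbp7. Gbp8 differed by 2.99 ± 0.34 in PGRN KO, 3.22 ± 0.34 in 14-3-3ε KO and 3.33 ± 0.34 in WT. Gbp7, tied in mouse macrophages to oxidative defence, differed by 4.14 ± 0.26, 3.68 ± 0.26 and 3.84 ± 0.26. Gbp9 differed by 4.12 ± 0.22, 4.77 ± 0.22 and 5.04 ± 0.22. Differences on the log2 (count + 1) scale understate the change of members with few counts in M2, such as Gbp8 and Gbp4. Scaling by library totals in place of the deposited normalization put the median of all genes at -0.22 in PGRN KO, -0.16 in 14-3-3ε KO and -0.20 in WT, where it was -0.04, 0.03 and -0.04.

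**Figure D3:**
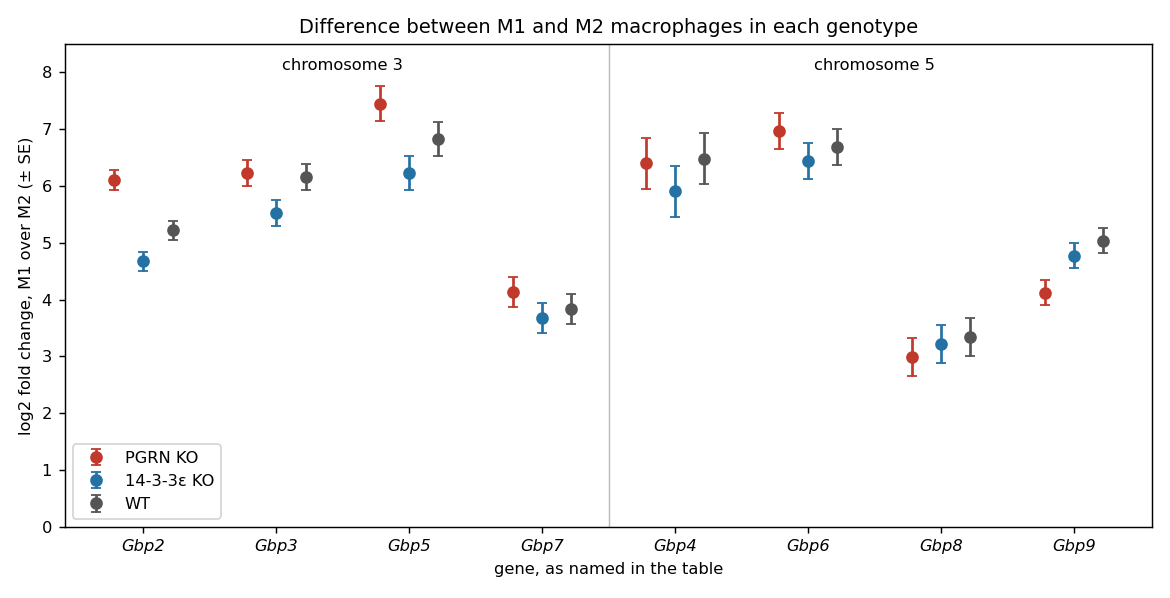
Log2 fold change of M1 over M2 (limma estimate ± SE, n = 3 libraries per group) for each gene in PGRN KO, 14-3-3ε KO and WT, with genes grouped by chromosome. Every estimate lies above 0, lowest for Gbp8 and highest for row Gbp5 in PGRN KO at 7.45.

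In M1 cells the PGRN KO had more guanylate-binding protein RNA than WT across the family. The PGRN KO libraries lay entirely above the WT libraries for 8 of 8 members, as they did for 17.9% of all genes. The test was passed by 5 members, Gbp2, row Gbp5, Gbp7, Gbp8 and Gbp9, and 14.2% of all genes were called higher. The median log2 difference of the 8 was 1.011, and that of all genes 0.01.

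Gbp8 showed the widest gap. It had 272, 344 and 250.1 normalized counts in PGRN KO M1, against 80.3, 111 and 85.3 in WT M1. The lowest PGRN KO library had more than the highest WT library, and the difference was 1.64 ± 0.34 (adjusted p = 0.00192, limma), a fold of 3.11. Gbp7 had 2504, 2415 and 2549 in PGRN KO M1, against 611, 1542 and 1292 in WT M1, a difference of 1.22 ± 0.26 (adjusted p = 0.00321). WT replicate 1, the shallowest library, was low for Gbp7 on 137 reads. Gbp9 had 1923, 1915 and 1875 in PGRN KO M1, against 718, 1049 and 936 in WT M1, a difference of 1.10 ± 0.22 (adjusted p = 0.00183).

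Gbp2 and row Gbp5, the prenylated members, also rose, to the levels given above. Gbp2 differed by 0.89 ± 0.17 (adjusted p = 0.00125) and row Gbp5 by 1.13 ± 0.30 (adjusted p = 0.0126). Row Gbp6, whose closest genes have been tied to control of mycobacteria in mice, had 7238, 7079 and 7425 in PGRN KO M1, against 4459, 4281 and 4364 in WT M1. Its groups were far apart, yet its difference of 0.73 ± 0.32 did not pass (adjusted p = 0.108). Gbp3 with 0.45 ± 0.23 (adjusted p = 0.167) and Gbp4 with 0.92 ± 0.44 (adjusted p = 0.144) did not pass either. All 3 passed when only these groups were fitted (adjusted p = 0.0192 for Gbp3, 0.0418 for Gbp4 and 0.00310 for row Gbp6), and with precision weights on the recovered reads (voom) all 8 members passed. In those fits 10% and 19.3% of all genes were called in either direction, against 25.3% in the main fit. Row Gbp5 did not pass without WT M1 replicate 1 (0.98, adjusted p = 0.0591), Gbp7 did not pass when only the groups compared were fitted (adjusted p = 0.0526), and Gbp8 and Gbp9 did not pass after thinning every library to the shallowest depth (adjusted p = 0.0532 and 0.0798).

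14-3-3ε KO M1 cells stood closer to WT. Gbp7 and Gbp9 rose and 0 members fell, so that 2 of 8 were called in either direction. That is close to the share of all genes called in either direction, 21.3%. The libraries of 14-3-3ε KO lay above those of WT for 4 members, and those of 18.5% of all genes did so. The median log2 difference of the 8 was 0.23, and that of all genes 0.07. Gbp7 had 2006, 2304 and 1710.2 in 14-3-3ε KO M1, against 611, 1542 and 1292 in WT M1, a difference of 0.90 ± 0.26 (adjusted p = 0.0259). Gbp9 had 1559.5, 1664 and 1408 in 14-3-3ε KO M1, against 718, 1049 and 936 in WT M1, a difference of 0.79 ± 0.22 (adjusted p = 0.0205). In both genes the groups did not overlap.

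The other 6 members gave differences of -0.17 ± 0.34 for Gbp8 to 0.34 ± 0.30 for row Gbp5 in 14-3-3ε KO M1, and none passed. Gbp2 differed by 0.19 ± 0.17 and Gbp3 by 0.04 ± 0.23. Gbp7 and Gbp9 did not pass without WT M1 replicate 1 or 14-3-3ε KO M1 replicate 1 or 2. They gave 0.50 (adjusted p = 0.0905) and 0.64 (adjusted p = 0.0954) without WT M1 replicate 1, 0.89 (adjusted p = 0.0642) and 0.78 (adjusted p = 0.0550) without 14-3-3ε KO M1 replicate 1, and 0.79 (adjusted p = 0.0999) and 0.73 (adjusted p = 0.0766) without 14-3-3ε KO M1 replicate 2. In those fits 12.9%, 14% and 10.6% of all genes were called in either direction, against 21.3% with all libraries.

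**Figure D4:**
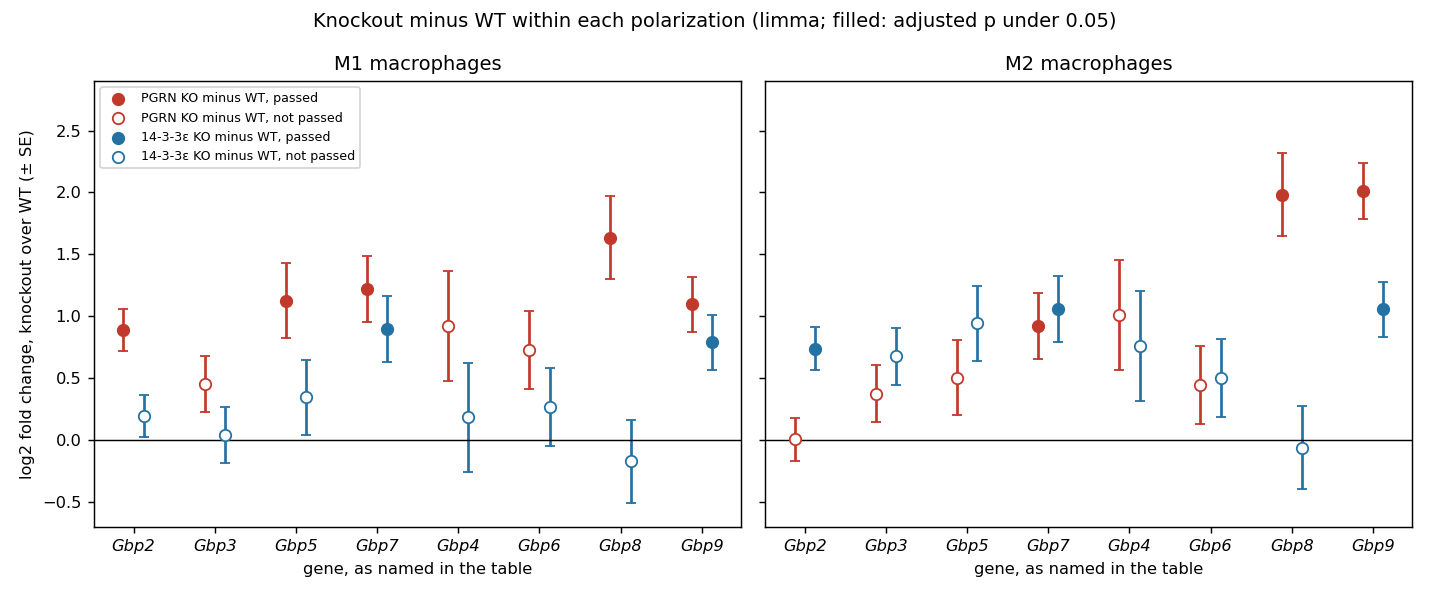
Log2 fold change of each knockout over WT (limma estimate ± SE, n = 3 libraries per group) in M1 and M2 cells, with filled points for adjusted p under 0.05. PGRN KO points pass for 5 genes in M1 and 3 in M2, with Gbp8 at 1.98 and Gbp9 at 2.01 in M2, and 14-3-3ε KO points pass for 2 genes in M1 and 3 in M2.

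In M2 cells, where the family is low, PGRN KO differed from WT most in Gbp8 and Gbp9. The members that rose were Gbp7, Gbp8 and Gbp9, 3 of 8, and 11.1% of all genes were called higher. The same 3 had PGRN KO libraries entirely above WT, as 21.2% of all genes did. Gbp9 had 97.1, 122 and 107 normalized counts in PGRN KO M2, against 23.9, 21.8 and 34.0 in WT M2, a difference of 2.01 ± 0.22 (adjusted p = 1.23e-05) and a fold of 4.03. Gbp8 had 32.6, 45.9 and 29.1 in PGRN KO M2, against 7.98, 10.9 and 6.18 in WT M2, a difference of 1.98 ± 0.34 (adjusted p = 0.000547). The WT values of Gbp8 rested on 6, 18 and 6 reads. Gbp7 had 135, 149.7 and 136 in PGRN KO M2, against 63.9, 91.9 and 68.0 in WT M2, a difference of 0.92 ± 0.26 (adjusted p = 0.0223).

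Gbp2 in M2 did not differ between PGRN KO and WT beyond its spread, with a difference of 0.01 ± 0.17, which was -0.04 after scaling by library totals. Gbp3 differed by 0.38 ± 0.23, row Gbp5 by 0.51 ± 0.30, row Gbp6 by 0.44 ± 0.32 and Gbp4 by 1.012 ± 0.44, and none of these passed. The Gbp7 call was lost without WT M2 replicate 1 (0.82, adjusted p = 0.0912), WT M2 replicate 3 (0.86, adjusted p = 0.0681), or PGRN KO M2 replicates 1, 2 or 3 (0.95, 0.87 and 0.94, adjusted p = 0.0552, 0.0676 and 0.0587), and with precision weights (0.88, adjusted p = 0.0900). Gbp4 passed without WT M2 replicate 1 (1.48, adjusted p = 0.0326) or PGRN KO M2 replicate 1 (1.55, adjusted p = 0.0167), row Gbp5 without WT M2 replicate 1 (0.87, adjusted p = 0.0441), and Gbp3 without PGRN KO M2 replicate 1 (0.67, adjusted p = 0.0328).

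14-3-3ε KO M2 cells had more Gbp2, Gbp7 and Gbp9 than WT. These 3 of 8 members rose, where 3.32% of all genes were called higher, and their libraries did not overlap, as was the case for 15.4% of all genes in that direction. Gbp2 had 643, 449 and 422 in 14-3-3ε KO M2, against 371, 289 and 243 in WT M2, a difference of 0.74 ± 0.17 (adjusted p = 0.0184). Gbp7 had 208, 131 and 136 in 14-3-3ε KO M2, against 63.9, 91.9 and 68.0 in WT M2, a difference of 1.06 ± 0.26 (adjusted p = 0.0272). Gbp9 had 77.7, 61.1 and 35.6 in 14-3-3ε KO M2, against 23.9, 21.8 and 34.0 in WT M2, a difference of 1.06 ± 0.22 (adjusted p = 0.0107). Replicate 1 of 14-3-3ε KO M2 was the highest of its group for all 8 members.

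Among the rest, Gbp8 differed by -0.06 ± 0.34 (0.05 after scaling by library totals), row Gbp5 by 0.94 ± 0.30 (adjusted p = 0.0758) and Gbp3 by 0.68 ± 0.23 (adjusted p = 0.0888), and none passed. Without 14-3-3ε KO M2 replicate 1 no member passed, with Gbp2 at 0.55 (adjusted p = 0.0895), Gbp7 at 0.85 (adjusted p = 0.121) and Gbp9 at 0.82 (adjusted p = 0.0592). In that fit 2.71% of all genes were called in either direction, against 6.69% with all libraries. Without WT M2 replicate 3, the library rich in ribosomal RNA-like reads, Gbp2 (0.60, adjusted p = 0.0941) and Gbp7 (1.002, adjusted p = 0.0984) did not pass. Gbp7 also did not pass without WT M2 replicate 1 (0.96, adjusted p = 0.106), where row Gbp5 did (1.31, adjusted p = 0.0157), or without 14-3-3ε KO M2 replicate 3 (1.15, adjusted p = 0.0532), nor with precision weights (1.04, adjusted p = 0.0877). With only the groups compared in the fit, Gbp2 (adjusted p = 0.0764) and Gbp9 (adjusted p = 0.0883) did not pass, which left 1 member, where 5.95% of all genes were called in either direction, and after thinning Gbp9 did not pass (0.88, adjusted p = 0.197).

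In M1 the 2 knockouts were also set directly against each other. The 14-3-3ε KO libraries lay entirely below PGRN KO libraries for 8 of 8 members, as they did for 21.5% of all genes, and Gbp2 and Gbp8 fell, 2 of 8, where 12.5% of all genes were called lower. Gbp8 had 107, 79.5 and 62.4 in 14-3-3ε KO M1, against 272, 344 and 250.1 in PGRN KO M1, a difference of -1.81 ± 0.34 (adjusted p = 0.000669). Gbp2 differed by -0.70 ± 0.17 (adjusted p = 0.00637), and after scaling by library totals, which put the median of all genes at 0.19 in place of 0.04, by -0.52 (adjusted p = 0.0675). Row Gbp5 with -0.78 ± 0.30 (adjusted p = 0.0740) and Gbp4 with -0.74 ± 0.44 (adjusted p = 0.267) had differences as large as that of Gbp2 and did not pass. The other 4 members had -0.47 to -0.31 (adjusted p from 0.230 to 0.449). The median difference of the 8 was -0.58, and that of all genes 0.04. The count was 8 when only these groups were fitted, where 29.3% of all genes were called in either direction. With precision weights it was 6, where 30.6% of all genes were called.

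In M2 Gbp2 rose in 14-3-3ε KO relative to PGRN KO, while Gbp8 and Gbp9 fell. That is 1 member higher where 8.29% of all genes were called higher, and 2 lower where 9.92% were called lower. The same 3 were the members whose libraries did not overlap, as held for 18.4% of all genes on the higher side and 21.1% on the lower side. Gbp2 differed by 0.73 ± 0.17 (adjusted p = 0.00580), Gbp8 by -2.04 ± 0.34 (adjusted p = 0.000310) and Gbp9 by -0.95 ± 0.22 (adjusted p = 0.00559). For Gbp8, with 14.2, 7.51 and 4.24 in 14-3-3ε KO M2 against 32.6, 45.9 and 29.1 in PGRN KO M2, the groups lay far apart. After thinning to the shallowest depth Gbp9 did not pass (adjusted p = 0.0592). The comparisons of the knockouts with WT share the WT libraries, so their values are set side by side here and not correlated.

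Whether a knockout changed a member differently in M1 and in M2 was tested as the difference of the 2 effects. For PGRN KO, 0 of 8 members passed in limma, where 1.25% of all genes did, with 2 at an unadjusted p under 0.05. With precision weights 0 passed, where 0.98% of all genes did. Those with the lowest p were Gbp2 with 0.88 ± 0.24 (adjusted p = 0.0964) and Gbp9 with -0.91 ± 0.32 (adjusted p = 0.189). For 14-3-3ε KO, 0 of 8 passed, where 0.286% of all genes did, with 1 at an unadjusted p under 0.05, Gbp2 with -0.54 ± 0.24 (adjusted p = 0.450). With precision weights 0 passed, where 0.0703% of all genes did. Set against each other in the same way, a contrast added after the data were seen, the knockouts differed between M1 and M2 in 1 of 8 members, Gbp2 with -1.43 ± 0.24 (adjusted p = 0.00437), where 0.933% of all genes were called lower and 2.26% in either direction. A missed threshold does not show that the effects were alike in M1 and M2.

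The row of Gbp11, a gene of the chromosome 5 cluster outside the members that GENCODE M21 lists as a polymorphic pseudogene, had a level of 168, 202 and 214 normalized counts in PGRN KO M1. It had 38.3, 49.3 and 43.4 in 14-3-3ε KO M1 and 53.5, 48.1 and 42.7 in WT M1. In M2 it had 0.679, 1.35 and 6.13 in PGRN KO, 1.35, 0 and 0 in 14-3-3ε KO, and 0 in each WT library. Of its 50-base stretches 19.2% occur in another family gene, 9.57% in Gbp8.

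Of 30 other genes around the family, from the interferon gamma receptor to the IRG proteins, caspases, autophagy genes and prenylation enzymes, 19 rose and 5 fell in M1 relative to M2 in PGRN KO, 20 rose and 3 fell in 14-3-3ε KO, and 20 rose and 3 fell in WT. Of all genes, 37.5%, 30% and 38.9% were called in either direction, and 18.0%, 15.6% and 18.9% higher. After scaling by library totals 5 fell in 14-3-3ε KO and 6 in WT, and after thinning 3 fell in PGRN KO and 1 in 14-3-3ε KO. In those fits 33.2% and 39% of all genes were called in either direction after scaling, and 32.9% and 26.1% after thinning. The median log2 differences of the 30 genes were 0.69, 0.58 and 0.58. The largest were those of the IRG genes Igtp (4.89, 4.80 and 5.28) and Irgb10, listed as Gm12250 (4.86, 4.61 and 5.05), still below the medians of the guanylate-binding protein genes. Irf1, an interferon-induced transcription factor, rose by 1.83, 1.78 and 1.71, and Casp4, which encodes caspase-11, by 2.78, 2.50 and 2.93. Atg7, an autophagy enzyme, fell by 0.29, 0.52 and 0.49, in PGRN KO not without M1 replicate 2 or M2 replicate 1 or 3 (adjusted p = 0.0721, 0.0798 and 0.0519). Fntb, a subunit of the farnesyltransferase that prenylates proteins, fell by 0.47, 0.44 and 0.49. Pggt1b, a subunit of the prenylating enzyme GGTase-I, had -0.57, -0.53 and -0.69 (adjusted p = 0.0273, 0.0492 and 0.00940). Pggt1b did not pass in PGRN KO without M1 replicate 1 or 2 or M2 replicate 1 or 2 (adjusted p from 0.0706 to 0.105), in 14-3-3ε KO without M1 replicate 1 or 3 or M2 replicate 1, 2 or 3 (adjusted p from 0.0728 to 0.157), or in WT without M2 replicate 2 (adjusted p = 0.0527) or with only the groups compared (adjusted p = 0.105). After thinning it passed in no genotype (adjusted p = 0.0755, 0.126 and 0.143), and Fntb did not pass in 14-3-3ε KO (-0.32, adjusted p = 0.0900). The number that fell in PGRN KO was 3 without M1 replicate 1, M2 replicate 2 or M2 replicate 3, 2 without M2 replicate 1 and 1 without M1 replicate 2, and in WT it was 5 without M1 replicate 2. In those fits 32.7 to 33.7% of all genes were called in either direction in PGRN KO and 41.9% in WT.

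In PGRN KO relative to WT, 12 of the 30 rose and 2 fell in M1, and 14 rose and 2 fell in M2, with medians of 0.17 and 0.27. Of all genes, 25.3% in M1 and 19.4% in M2 were called in either direction, and 14.2% and 11.1% higher. With only the groups compared in the fit, 0 of the 30 fell in M1, where 10% of all genes were called in either direction. Irf8, an interferon-inducible transcription factor, rose by 0.82 ± 0.09 in M1 and by 0.72 ± 0.09 in M2. Irgb10 (0.51 and 0.70) and Casp4 (0.35 and 0.49) rose in both states. Casp4 in M1 did not pass with only the groups compared (adjusted p = 0.0582) or after scaling by library totals (0.25, adjusted p = 0.0910), and after thinning neither gene passed in M1 (Irgb10 adjusted p = 0.158, Casp4 adjusted p = 0.167) or in M2 (Irgb10 adjusted p = 0.0778, Casp4 adjusted p = 0.0957). Irf1 gave 0.27 and 0.15 and Fntb -0.02 and -0.04, and none of these passed. The 2 lowest in M1 were Ptpn2, a phosphatase that acts on JAK and STAT proteins, at -0.51 and Fnta at -0.36, which did not pass with only the groups compared (adjusted p = 0.149 and 0.0661). In M2 the lowest were Socs1, an inhibitor of JAK signalling, at -0.89 and Ptpn2 at -0.34, which did not pass (adjusted p = 0.0925). Pggt1b gave 0.76 ± 0.19 in M1 (adjusted p = 0.00897; 0.63, adjusted p = 0.0519, without PGRN KO M1 replicate 3, and adjusted p = 0.123 with only the groups compared) and 0.65 ± 0.19 in M2 (adjusted p = 0.0270; not passed without WT M2 replicate 1 or 3 or any single PGRN KO M2 library). The number that fell in M2 was 1 without WT M2 replicate 1, where 13.5% of all genes were called in either direction.

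In 14-3-3ε KO relative to WT, 4 of the 30 rose and 7 fell in M1, and 5 rose and 1 fell in M2, with medians of 0.00 and 0.02. Of all genes, 21.3% in M1 and 6.69% in M2 were called in either direction. With only the groups compared, 1 rose and 0 fell in M1 and 2 rose in M2 (1.8% and 5.95% of all genes called). After scaling by library totals 3 fell in M1 and 0 in M2 (19.5% and 7.12% of all genes called). After thinning 3 fell in M1 (13.9% of all genes called). The highest in M1 were Nlrp3, the inflammasome sensor, at 0.84 and Pggt1b at 0.77, which did not pass without 14-3-3ε KO M1 replicate 2 (0.66, adjusted p = 0.0610), and the lowest Socs1 at -0.54 (adjusted p = 0.0890) and Ptpn2 at -0.48. In M2 the highest were the IRG gene Irgm2 at 0.73 and Pggt1b at 0.62 (adjusted p = 0.0687), and the lowest the receptor gene Ifngr1 at -0.39 and Socs1 at -0.29 (adjusted p = 0.474). Ptpn2 did not pass without WT M1 replicate 1 (-0.25, adjusted p = 0.0561), 14-3-3ε KO M1 replicate 2 (-0.50, adjusted p = 0.0549) or replicate 3 (-0.43, adjusted p = 0.0740). Irgb10 gave 0.12 in M1 and 0.56 in M2 (adjusted p = 0.504 and 0.0109), the second not passing without 14-3-3ε KO M2 replicate 1 (0.52, adjusted p = 0.0540). Casp4 gave -0.28 in M1 and 0.15 in M2 (adjusted p = 0.0356 and 0.358), the M1 call being lost without WT M1 replicate 1 or 2 or 14-3-3ε KO M1 replicate 1 or 3 (adjusted p from 0.0616 to 0.150). Irf1 gave 0.07 and 0.00 and Fntb 0.09 and 0.04, and none of these passed. Irgm2 did not pass in M2 with only the groups compared (adjusted p = 0.0549), nor Ifngr1 after scaling by library totals (-0.27, adjusted p = 0.0666), nor Irgb10 with precision weights (adjusted p = 0.0762) or after thinning (0.42, adjusted p = 0.358). The number that fell in M1 was 2 without WT M1 replicate 1, 4 without 14-3-3ε KO M1 replicate 2 (with 2 that rose) and 2 without 14-3-3ε KO M1 replicate 3. The number that rose in M2 was 2 without WT M2 replicate 3 and 1 without 14-3-3ε KO M2 replicate 1. In those fits 12.9%, 10.6% and 14.8% of all genes were called in M1, and 2.7% and 2.71% in M2.

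In 14-3-3ε KO relative to PGRN KO, 2 of the 30 rose and 14 fell in M1, and 1 rose and 10 fell in M2. Of all genes, 12.5% were called lower and 25% in either direction in M1, and 9.92% lower and 8.29% higher in M2. The lowest were Casp1, which encodes the inflammasome caspase, at -0.90 and Irf8 at -0.79 in M1, and Irf8 at -0.82 and Aim2, a sensor of cytosolic DNA, at -0.72 in M2. Nlrp3 was the highest in both, at 0.80 and 0.70, followed by Fnta at 0.27 in M1 and Socs1 at 0.60 in M2 (adjusted p = 0.0677). Irgb10 gave -0.39 and -0.14 (adjusted p = 0.0248 and 0.529), the M1 call being lost without PGRN KO M1 replicate 2 or 3 or 14-3-3ε KO M1 replicate 1 or 3 (adjusted p from 0.0516 to 0.112). Casp4 gave -0.63 and -0.35 (adjusted p = 6.31e-05 and 0.0120), the M2 call being lost without PGRN KO M2 replicate 1 or 14-3-3ε KO M2 replicate 3 (adjusted p = 0.0645 and 0.0704). The Fnta call in M1 was lost without PGRN KO M1 replicate 1 or 2 or 14-3-3ε KO M1 replicate 1 or 3 (adjusted p from 0.0517 to 0.0732). Irf1 (-0.20 and -0.15), Fntb (0.11 and 0.08) and Pggt1b (0.01 and -0.03) did not pass. After scaling by library totals 7 fell in M1, and 3 rose and 4 fell in M2, where Casp4 did not pass (-0.17, adjusted p = 0.292), nor did Irgb10 in M1 (-0.21, adjusted p = 0.332). After that scaling 24.4% of all genes in M1 and 18.9% in M2 were called in either direction. The number that rose in M2 was 3 with only the groups compared and 0 after thinning, where Nlrp3 gave 0.49 (adjusted p = 0.138). The shares of all genes called in M2 were 25% and 14.4% in those fits. Thinning also ended the calls of Irgb10 in M1 (-0.35, adjusted p = 0.386) and Casp4 in M2 (-0.12, adjusted p = 0.721). The number that rose in M1 was 1 without PGRN KO M1 replicate 1 or 2 or without 14-3-3ε KO M1 replicate 1 or 3, and the number that fell in M2 was 6 without PGRN KO M2 replicate 1. In those fits 19.3 to 22.3% of all genes were called in either direction in M1 and 13.2% in M2. The 2 tests of whether a knockout's effect differed between M1 and M2 called 0 of the 30 in limma, with 1 at an unadjusted p under 0.05 for PGRN KO and 7 for 14-3-3ε KO, and 0 with precision weights. The shares of all genes called were 1.25% and 0.286% in limma, and 0.98% and 0.0703% with precision weights.

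Genes whose pattern is most like that of the family were ranked by Pearson correlation with the mean of the 7 members whose mean level was at least 5 CPM (all but Gbp8), among 10314 genes. Over all 18 libraries, which fall into an M1 and an M2 cluster, the top 5 were Stat2, Ddx58, Nfkbie, Irgm2 and Irgm1, all at 0.997, and 8.16% of all candidates exceeded 0.9. After the mean of each polarization state was subtracted, the top 5 included Irgm1 (0.9002), Stat2 (0.893), Lrrc8c (0.887) and Ddx58 (0.877). All points share their libraries and depths, and these values describe the data without a test. Between pairs of members on that second scale, the correlation ranged over 0.267 for Gbp2 and Gbp8 to 0.906 for Gbp2 and row Gbp5.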

How the data were processed

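RNA-seq of total RNA was analysed in 18 libraries, 3 in each of 6 groups taken from the labels. The deposited table holds, for each gene and library, log2 of a normalized count plus 1 made by the authors. Per the submitters' processing notes, STAR, RSEM 1.3.1 and DESeq2 were used. Those notes name GRCh38, but the gene identifiers are mouse, so that build was not used. Of 43309 identifiers, 42425 were found in GENCODE M21 on GRCm38, and 39055 of these had the same symbol.

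In every library 100% of the values, turned back to normalized counts, were whole multiples of 1 step to within 0.1, which gave the reads and the depth of 5.16 to 105 M. The planned test for log2 values was used. A gene entered the fit if 3 or more libraries had a normalized count of 1 or higher, which left 21336 genes and all 8 members. One model over the 6 groups was fitted by limma 3.58.1 under R 4.3.3 with trended, robust variances. P-values are 2-sided and adjusted by Benjamini-Hochberg across every gene fitted in that comparison, with 0.05 as the threshold. No source used here says if replicates are separate mice or cultures, so p-values measure the spread between these samples, which may be technical.

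The members and lists were chosen with earlier results of these data known. All members are counted in every comparison, and those called in a comparison that involves 2 genotypes are named. Of the 30 pathway genes, Irf1, Irgb10 (matched to Gm12250 by its RefSeq synonym), Casp4, Fntb, Pggt1b and the 2 highest and 2 lowest of a comparison are named, except 1 gene that is counted but not reported here. The contrast of the knockouts' difference between M1 and M2, precision weights and thinning were added after the data were seen. In data simulated for the 9 simple comparisons, with 200 changed genes among 21336, limma recovered 69 to 82% of 2-fold and 89 to 94% of 4-fold changes. It also called 46 unchanged genes for PGRN KO against WT in M1 and 25 for 14-3-3ε KO against WT in M1. For M1 against M2 in WT it called 24, and elsewhere at most 12. Each simulated gene started from the same mean in all groups, unlike the members, which are low in M2. It also had the same spread in all groups, whereas the WT libraries were less alike. Pearson correlations within a group were 0.912 to 0.941 in WT M1 and 0.932 to 0.969 in WT M2, against 0.971 to 0.986 elsewhere. The simulation therefore cannot show how often limma calls unchanged genes when groups of unequal spread are compared, as with WT. Sequences come from GENCODE M21 (coding windows) and RefSeq on GRCm38.p6 (promoters). Tables and figures used Python 3.11.15, pandas 2.3.3 and matplotlib 3.10.9.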

Additional observations from a re-analysis of the deposited data

Results flagged for a closer look

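Gbp2 stood out in a contrast added after the data were seen, the difference between 14-3-3ε KO and PGRN KO in M1 minus the same difference in M2. It was -1.43 ± 0.24 on the log2 scale (adjusted p = 0.00437, limma), and 0.933% of all genes were called lower in that contrast, 2.26% in either direction. In M1, Gbp2 had 13226, 13744 and 11214 normalized counts in 14-3-3ε KO, against 20817, 20613 and 20207 in PGRN KO. In M2 it had 643, 449 and 422 in 14-3-3ε KO, against 234, 340.3 and 333 in PGRN KO. The order of the 2 knockouts thus turned round between the states, without overlap of libraries in either. With single libraries left out the value was between -1.55 and -1.24. Of the other 7 members 0 passed in limma, with row Gbp5 at -1.22 ± 0.43 (adjusted p = 0.187) and Gbp9 at 0.65 ± 0.32 (adjusted p = 0.405).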

How the results depend on the processing

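With each library left out in turn, the number of members called in M1 against M2 stayed at 8 in each genotype. It was 4 to 5 for PGRN KO against WT in M1, 0 to 2 for 14-3-3ε KO against WT in M1, 2 to 4 for PGRN KO against WT in M2 and 0 to 3 for 14-3-3ε KO against WT in M2. For M1 against M2, the shares of all genes called were 32.7 to 34.7% in PGRN KO, 25.3 to 26% in 14-3-3ε KO and 34 to 41.9% in WT. For PGRN KO against WT they were 18.2 to 29.9% in M1 and 12.9 to 17.5% in M2. For 14-3-3ε KO against WT they were 10.6 to 30.3% in M1 and 2.7 to 7.73% in M2. With only the groups compared in the fit, 0 members were called for 14-3-3ε KO against WT in M1 (1.8% of all genes, 21.3% with all groups), 1 in M2 (5.95%, against 6.69%), and 8 for 14-3-3ε KO against PGRN KO in M1 (29.3%, against 25%), where scaling by library totals called 1 (24.4% of all genes). Voom called 8 members for PGRN KO against WT in M1 (19.3% of all genes) and 6 for 14-3-3ε KO against PGRN KO in M1 (30.6%). It called 2 in place of 3 for each knockout against WT in M2, with 24.8% of all genes for PGRN KO and 9.68% for 14-3-3ε KO. Thinning to the shallowest library called 0 for 14-3-3ε KO against WT in M1 (13.9% of all genes). The cause of these moves was not tested. Of the values of single members under alternatives, 1481 kept direction and call, 24 gained and 34 lost the call, and 45 changed sign. Whether the replicate numbers pair libraries across groups is not known. Same-numbered libraries correlated at -0.355 to 0.53 (median -0.03), and 1 of 15 pairs of groups had every correlation over 0.1. Low correlations cannot show that libraries were unpaired. With the replicate number as a block, the members called were again 8 in M1 against M2, 5 and 3 for PGRN KO against WT in M1 and M2, 2 and 3 for 14-3-3ε KO against WT, and 2 and 3 for 14-3-3ε KO against PGRN KO, and no count of members changed. In M1 against M2, 38%, 30.5% and 39.3% of all genes were then called in PGRN KO, 14-3-3ε KO and WT. The shares in M1 and M2 were 25.8% and 20.4% for PGRN KO against WT and 22.1% and 7.57% for 14-3-3ε KO against WT. Between the knockouts they were 25.5% and 18.7%.

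All signs that changed belonged to values that were not called. Scaling by library totals gave -0.044 for Gbp2 in PGRN KO against WT in M2 and 0.047 for Gbp8 in 14-3-3ε KO against WT in M2. Without WT M2 replicate 3 and WT M1 replicate 2, which hold most ribosomal RNA-like reads, Gbp2 gave -0.14 in PGRN KO against WT in M2, and the M1 minus M2 differences of effect were 0.23 for Gbp4 (PGRN KO), 0.16 for Gbp7 and 0.20 for Gbp8 (14-3-3ε KO). Row Gbp6 in 14-3-3ε KO against PGRN KO in M2 gave -0.063 with voom and -0.00020 after thinning. Thinning also gave -0.092 for Gbp2 in PGRN KO against WT in M2, -0.68 for Gbp4 in 14-3-3ε KO against WT in M2, 0.81 and 0.30 for the 14-3-3ε KO differences of effect of Gbp4 and Gbp8, and 1.31 for Gbp4 in the added contrast. With libraries left out, values that crossed 0 spanned -0.0031 to 0.10 for Gbp3 and -0.37 to 0.015 for Gbp8 in 14-3-3ε KO against WT in M1, -0.46 to 0.31 for Gbp8 in M2, and -0.14 to 0.18 for Gbp2 in PGRN KO against WT in M2. In 14-3-3ε KO against PGRN KO in M2 they spanned -0.79 to 0.059 for Gbp4, -0.33 to 0.47 for row Gbp6 and -0.074 to 0.26 for Gbp7. For the PGRN KO difference of effect they spanned -0.22 to 0.29 (Gbp3), -0.63 to 0.28 (Gbp4) and -0.10 to 0.56 (Gbp7), for that of 14-3-3ε KO -0.65 to 0.15 (row Gbp6), -0.56 to 0.11 (Gbp7) and -0.48 to 0.28 (Gbp8), and in the added contrast -0.80 to 0.050 (Gbp4) and -0.14 to 0.63 (Gbp8). The edgeR alternative was not run because the deposited values are log2. Depth limits Gbp4 and Gbp8 most, with 3 to 53 and 5 to 136 reads per M2 library.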
